A study of Mus musculus with 13 samples.

Results

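The angiopoietin and Tie receptor axis was followed here as 5 genes, Tek, Tie1, Ptprb, Angpt1 and Angpt2, which were chosen by name and looked up by symbol in the count tables. They were found among 24984 genes listed in 9 libraries of tumor endothelial cells (ECs) and among 24421 genes listed in 4 libraries of CD31+ cells sorted from vessel sprouts, which the labels call endothelial cells and which are named sprout cells here because pluripotency transcripts outweighed endothelial ones in 3 of the 4. In the sprout cells, the receptors Tek and Tie1 and the phosphatase Ptprb were 3.58-fold, 4.79-fold and 3.86-fold lower in the libraries labelled STOP than in those labelled GO. The endothelial markers were lower in the same libraries, with 12 of 14 called, against 3.03% of all genes called lower. Their log2 fold changes ran from -2.50 to -0.80 with a median of -1.91, a range that held Tek (-1.84), Tie1 (-2.26) and Ptprb (-1.95). Relative to the mean of these markers Tek differed by -0.09 and Ptprb by -0.20 with overlapping groups, and Tie1 by -0.56 with the groups apart, and the sign for Tek turned with the library left out. In tumor ECs, none of the 4 axis genes that could be tested passed the threshold between Apelin-depleted and Apelin wild-type tumors. Of all genes tested there, 0.00765% passed lower and 0% passed higher. Angpt1 was at or near 0 in all 9 libraries.

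The angiopoietins are secreted ligands of the receptor tyrosine kinase Tie2, the product of Tek, which ECs carry on their surface. Angpt1 is made mainly by cells around the vessel and activates Tie2, which keeps vessels quiescent and their junctions tight, whereas Angpt2 is made and stored by ECs themselves and acts on the same receptor as a weak activator or as an antagonist, depending on context. Tie1 is a related receptor with no ligand of high affinity that pairs with Tie2 and modulates its signal, and Ptprb encodes VE-PTP, an endothelial receptor phosphatase that removes phosphate from Tie2 and acts on VE-cadherin junctions.

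The study asked how Apelin, a peptide ligand of ECs, shapes tumor vessels and sprouting. For the tumor set, E0771 cells, a mouse mammary carcinoma line, were injected orthotopically into C57BL6/J mice, and at day 25 pools of 100 CD45-/CD31+/CD105+ ECs, a gate meant to leave out leukocytes, were sorted for each library and sequenced by Smart-Seq2. The Apelin-depleted group (n = 3) combined Apln-/- host mice, which lack the gene in the germline, with tumor cells carrying shApln, and the Apelin wild-type group (n = 6) combined wild-type hosts with tumor cells carrying the control hairpin shRenilla. Host and tumor-cell Apelin were therefore removed together and cannot be told apart. For the sprout set, CD31+ cells were sorted from embryoid bodies grown from a female C57BL/6x129 mouse embryonic stem cell line of haploid origin with a gene trap in Apln, in the presence of 30 ng/ml VEGFA164 in both groups. The STOP group (n = 2) held the trap in the sense orientation, which disrupts the gene, and received DMSO, and the GO group (n = 2) held it in antisense after Cre and received Apelin Pyr13 at 1000 nM. STOP and GO cells were sister cells of 1 line, GO cells alone had been given Cre, and the state of the gene and the added peptide changed together, so these cannot be told apart either. The labels number the libraries but do not tie them to separate mice or cultures, so the p-values measure the spread between these libraries.

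Total counts ran from 4661044 to 14455093 in the tumor libraries and from 12327030 to 16804071 in the sprout libraries. The counts of Apln itself followed the tumor labels, at 20 to 121 with depletion and 4262 to 6619 without. In the sprout libraries Apln had 976 and 984 counts under STOP and 986 and 817 under GO, so the trap label was not matched by a lower count of the gene (log2 fold change 0.24 ± 0.16 SE, edgeR adjusted p = 0.367). The trap sits in the first intron, and a count per gene does not separate reads before it from reads beyond it, so this is no full check of the labels, and every STOP against GO direction here goes by library label. The summed level of 14 endothelial markers, which hold none of the axis genes, was 10610 to 18320 CPM, read counts scaled by the depth of the library, in tumor ECs and 729 to 2768 CPM in sprout cells. Among these markers are Pecam1, which encodes CD31, and Eng, which encodes CD105. Tumor ECs were sorted on both antigens and sprout cells on CD31. The 7 pluripotency markers summed to 1903 to 5196 CPM in the sprout libraries, above the endothelial sum in 3 of the 4, and to at most 5.76 CPM in the tumor libraries, where Dppa5a was at 0 in all 9. In the tumor set, Apelin wild-type 2 stood apart with 5032 CPM over 6 fibroblast markers, against 41.5 to 205 CPM in the other 8 libraries.

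The 5 genes lie on 4 chromosomes of mm10 (GRCm38). Tek spans chr4:94739086-94874976 on the plus strand and Tie1 spans chr4:118471191-118489849 on the minus strand, 23.6 Mb away. Ptprb lies at chr10:116275502-116389538 on the plus strand and contains the small nucleolar RNA gene Gm26495, with 0 shared exon bases. Angpt1 lies at chr15:42424667-42676977 on the minus strand, where the annotation also places the long noncoding RNA gene Gm41313. Angpt2 lies at chr8:18690263-18741562 on the minus strand inside Mcph1, a gene of the plus strand with which it shares 0 exon bases, and the strand setting of the counting is not given in the sources used here. Mcph1 did not pass the test in either set, with log2 fold changes of -0.69 ± 0.77 (SE, edgeR adjusted p = 1.00) in tumor ECs and 0.31 ± 0.17 (SE, adjusted p = 0.284) in sprout cells.

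The promoters of the receptors are shown because Tek and Tie1 moved together in the sprout libraries, and because ETS and GATA factors are known regulators of endothelial genes. RefSeq start sites on GRCm38.p6 gave 300 bases for 2 of the 5 members, from 250 bases before the start to 50 after it. For Tie1 that start is the gene's outer bound given above. For Tek it lies at 94739289, 203 bases inside the outer bound, so 47 bases of its window precede the gene as annotated and the rest lie within it. The capitals mark GGAA, the core of the ETS motif, or TTCC, the same letters on the other strand.

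Tek, chr4:94739039-94739338, plus strand: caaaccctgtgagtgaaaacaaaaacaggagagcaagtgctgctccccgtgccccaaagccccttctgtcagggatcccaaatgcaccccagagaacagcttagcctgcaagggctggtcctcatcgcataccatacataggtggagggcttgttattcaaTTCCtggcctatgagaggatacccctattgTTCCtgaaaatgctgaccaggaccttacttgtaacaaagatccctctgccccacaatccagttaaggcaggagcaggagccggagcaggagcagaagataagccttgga

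Tie1, chr4:118489800-118490099, minus strand: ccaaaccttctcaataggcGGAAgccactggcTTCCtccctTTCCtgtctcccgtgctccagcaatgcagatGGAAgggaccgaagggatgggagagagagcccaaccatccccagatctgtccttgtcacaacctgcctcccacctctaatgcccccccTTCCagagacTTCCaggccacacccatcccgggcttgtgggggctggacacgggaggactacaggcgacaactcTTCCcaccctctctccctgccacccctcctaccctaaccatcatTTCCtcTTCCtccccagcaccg

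GGAA or TTCC stood 2 times in the Tek window and 9 times in the Tie1 window. These letters are common, since 96.0% of 32851 promoter windows of the same length held at least 1 match, with a median of 3, and 3.72% held 8 or more. GATA or its reverse complement TATC stood 2 times in the Tek window and 0 times in the Tie1 window, against 57.9% of windows with at least 1 match, and shared no base with a GGAA match. GTAAACA, a core bound by FOXO factors, or its reverse complement TGTTTAC, was in neither window and in 3.65% of all windows. A match is a description of letters and not a binding site.

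Of the receptors, Tek stood at 19.5 and 16.4 CPM in the 2 STOP libraries and at 72.9 and 55.5 CPM in the 2 GO libraries, from 288, 201, 1236 and 688 counts. Both STOP libraries were below both GO libraries. The means were 17.9 ± 2.21 CPM (SD, n = 2) and 64.2 ± 12.3 CPM (SD, n = 2), and the log2 fold change was -1.84 ± 0.19 (SE, edgeR adjusted p = 0.00437).

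Tie1 stood at 46.1 and 60.5 CPM under STOP and at 269 and 240 CPM under GO, from 681, 742, 4563 and 2979 counts. The groups did not overlap and lay further apart than those of any other axis gene (log2 fold change -2.26 ± 0.17 SE, edgeR adjusted p = 0.00242). In bulk libraries such as these, fewer cells of a type and less RNA per cell cannot be told apart.

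Ptprb, the phosphatase, stood at 15.2 and 17.1 CPM under STOP and at 65.4 and 59.2 CPM under GO, from 224, 210, 1109 and 733 counts. Its groups were also apart, with the tightest replicates of the 5 genes by their coefficients of variation (8.5% under STOP and 7.12% under GO). The log2 fold change was -1.95 ± 0.16 (SE, edgeR adjusted p = 0.00242).

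The ligands were scarce in the sprout libraries. Angpt2 had 25 and 47 counts under STOP and 139 and 54 under GO, which is 1.69, 3.83, 8.20 and 4.36 CPM. The higher STOP library and the lower GO library were close together, and the log2 fold change of -1.20 ± 0.50 (SE, edgeR adjusted p = 0.176) did not pass. Angpt1 had 12 and 14 counts under STOP and 52 and 13 under GO, which is 0.813, 1.14, 3.07 and 1.05 CPM. GO 1 alone stood higher, the other GO library lay between the STOP libraries, and the log2 fold change of -1.10 ± 0.62 (SE, adjusted p = 0.289) did not pass. Without GO 1 the fold change of Angpt1 was -0.11 (adjusted p = 0.966) and that of Angpt2 was -0.67 (adjusted p = 0.668). Counts of 12 to 54 also leave wide counting error on each of these values.

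**Figure D1:**
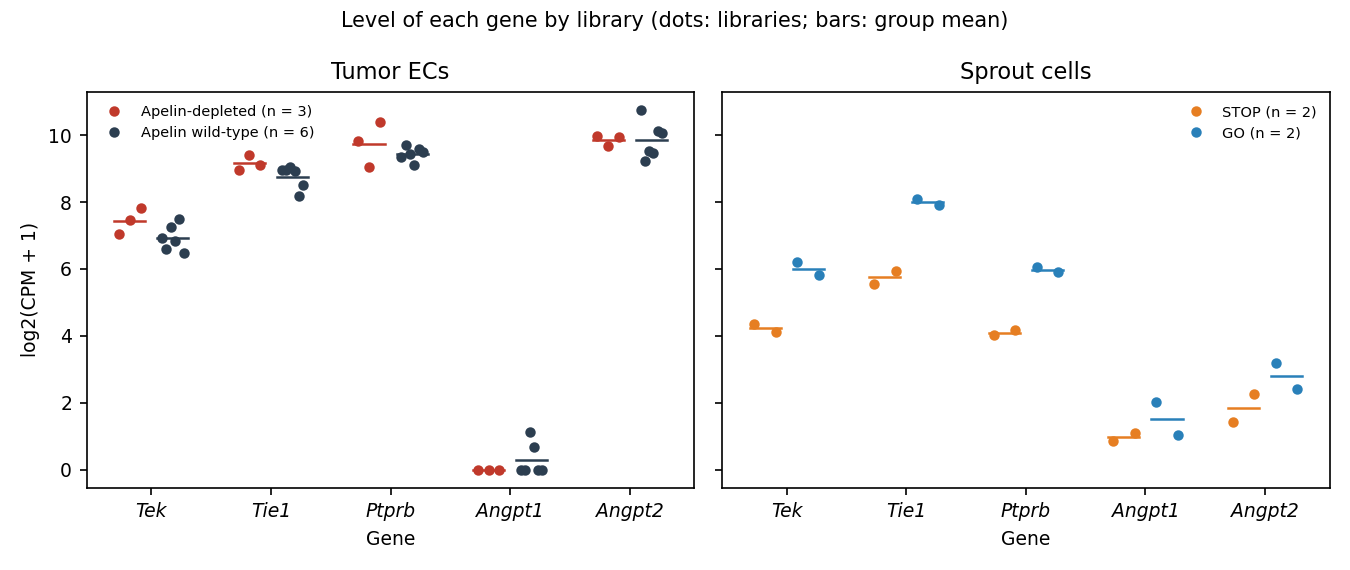
Level of Tek, Tie1, Ptprb, Angpt1 and Angpt2 on the log2(CPM + 1) scale (y axis) in each library (dots) with the group mean (bars), for tumor ECs on the left and sprout cells on the right. Tek, Tie1 and Ptprb lie lower in the STOP libraries than in the GO libraries without overlap, the tumor groups overlap for each tested gene, and Angpt1 is at 0 counts in 7 of the 9 tumor libraries.

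In all, 3 of the 5 axis genes passed an adjusted p under 0.05 with at least a 2-fold change and were lower under STOP, and 0 were higher. Of the 14557 genes tested in this set, 3.03% passed lower and 0.852% passed higher. The STOP and GO libraries did not overlap for 4 of the 5 members, all lower under STOP, against 29.6% of all genes lower and 31% higher without overlap. Tek, Tie1 and Ptprb kept their direction in each of 11 alternative settings, with ranges of -2.02 to -1.63, -2.48 to -2.06 and -2.05 to -1.84 on the log2 scale. They kept their call in each setting that used all libraries. With a library left out, its group keeps a single library and has no spread of its own.

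The endothelial markers moved the same way. Of the 14, 12 passed lower under STOP and 0 passed higher. Their median change was -1.91 on the log2 scale, against 0.01 over all genes, for example Cdh5, which encodes VE-cadherin, at 122 and 212 CPM under STOP and 681 and 634 CPM under GO. All 7 pluripotency markers were above 0 (median 0.92), and 1 of them, Dppa5a, passed (1.28 ± 0.22 SE, edgeR adjusted p = 0.0227). All 7 were higher under STOP without overlap, against 31% of all genes. Each had an unadjusted edgeR p under 0.05, against 12.4% of all genes higher. Set against the mean log2(CPM + 1) of the 14 endothelial markers in the same library, Tek differed by -0.09 between STOP (-1.04 ± 0.52, SD, n = 2) and GO (-0.95 ± 0.28, SD, n = 2), and the groups overlapped. The sign of this value turned with the library left out, at -0.45 without STOP 1, 0.28 without STOP 2, 0.11 without GO 1 and -0.28 without GO 2, and it was -0.36 with Pecam1 and Cdh5 as the only markers. Ptprb differed by -0.20 on this scale, again with overlapping groups, and by -0.36 without STOP 1, -0.03 without STOP 2 and -0.47 with Pecam1 and Cdh5 alone. Tie1 differed by -0.56 (-0.64 to -0.47 with each library left out, -0.83 with Pecam1 and Cdh5 alone), from 0.47 ± 0.08 (SD, n = 2) under STOP to 1.03 ± 0.12 (SD, n = 2) under GO, with the groups apart. Its own log2 fold change of -2.26 lay within the range of the 14 single markers, -2.50 to -0.80. Pecam1 encodes CD31, the antigen of the sort, and stood at 139 and 169 CPM under STOP and 264 and 273 CPM under GO. The part of the gate in values set against Pecam1 was not tested. With 2 libraries against 2 an exact permutation test cannot go below p = 0.33, so none was run. How far the endothelial content of the sorted cells takes part in the fold changes was not tested beyond these values.

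Angpt2 and Angpt1, whose fold changes lay nearer to 0 than the median of the endothelial markers, stood higher under STOP on the same relative scale, by 0.73 and 1.14, with the groups apart. Each size rested on GO 1 and GO 2, since Angpt2 stood at 1.12 without GO 1 and 0.33 without GO 2, and Angpt1 at 1.64 and 0.64. The added count of 1 CPM understates changes of genes as low as these, so this shift is not independent of the scale. Tie1 over Tek, both on the log2(CPM + 1) scale, was 1.2 and 1.82 under STOP and 1.87 and 2.10 under GO, a difference of -0.47 between groups that did not overlap. It was -0.16 without STOP 1 and -0.78 without STOP 2, so its size rested on those libraries.

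**Figure D2:**
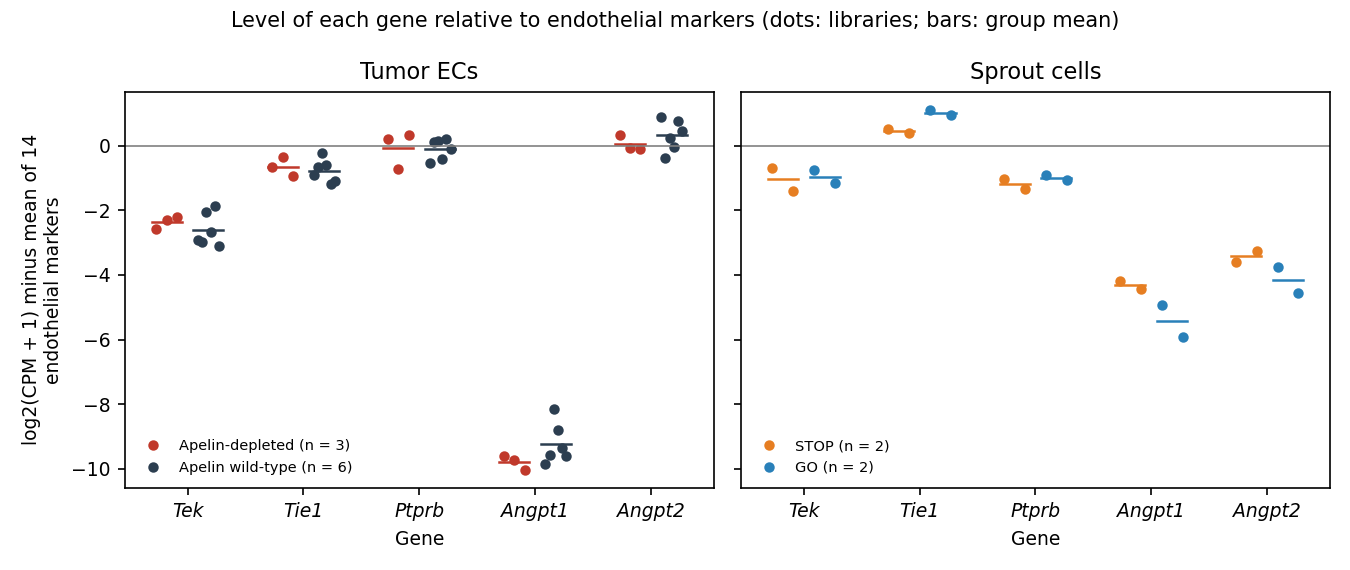
Level of each axis gene in log2(CPM + 1) minus the mean of 14 endothelial markers in the same library (y axis; 0 is the marker mean), with dots for libraries and bars for group means. In sprout cells, Tek and Ptprb overlap between STOP and GO, Tie1 is lower under STOP and Angpt1 and Angpt2 are higher, while the tumor groups overlap for Tek, Tie1, Ptprb and Angpt2, and the dot of Angpt1 shows the marker mean alone in the 7 of 9 tumor libraries where it has 0 counts.

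Per transcript length, the axis genes kept 1 order in both sprout groups. In TPM, a measure scaled to transcript length and depth, Tie1 stood at 18.7 ± 3.25 (SD, n = 2) under STOP and 101 ± 15.5 (SD, n = 2) under GO, Tek at 5.27 ± 0.82 and 21.7 ± 5.62, Ptprb at 1.83 ± 0.14 and 8.06 ± 1.17, Angpt2 at 1.30 ± 0.55 and 3.17 ± 1.25, and Angpt1 at 0.32 ± 0.04 and 0.80 ± 0.58. Neighbours in this order did not overlap in any group, except that under STOP the gap between the lower Ptprb library (1.73 TPM) and the higher Angpt2 library (1.69 TPM) was smaller than the spread of Angpt2. The same order came from the unique-read counts divided by transcript length.

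Tumor ECs held Tek, Tie1, Ptprb and Angpt2 at higher CPM than sprout cells, and in another order per length, although the sets were prepared and normalized separately and their levels were not tested against each other. With depletion, Tek stood at 132, 174 and 228 CPM, and the wild-type libraries ran from 88.9 to 179 CPM (median 117). The groups overlapped, and the log2 fold change was 0.51 ± 0.31 (SE, edgeR adjusted p = 1.00). It was 0.29 without Apelin-depleted 3 and 0.68 without Apelin-depleted 1.

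Tie1 was at 498, 679 and 550 CPM with depletion, against a wild-type range of 290 to 532 CPM (median 486). Apelin-depleted 2 and 3 lay above all wild-type libraries, Apelin-depleted 1 did not, and the log2 fold change was 0.38 ± 0.27 (SE, edgeR adjusted p = 1.00). It was 0.18 with the replicate number as a block.

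The 3 depleted libraries held Ptprb at 906, 523 and 1331 CPM, and the wild-type libraries held it at 547 to 841 CPM (median 710). The depleted group spread around the wild-type group on both sides, with a log2 fold change of 0.39 ± 0.29 (SE, edgeR adjusted p = 1.00). Without Apelin-depleted 3, the highest library, it was 0.02, and without Apelin-depleted 2, the lowest, it was 0.67.

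Angpt2 was the most abundant axis transcript of tumor ECs per length, with lengths taken from the sprout libraries. Depleted libraries 1 to 3 held 5886, 11484 and 8145 counts of it, or 808 to 1000 CPM, and the wild-type libraries ran from 592 to 1722 CPM (median 897). The groups overlapped with nearly the same mean, 934 ± 109 CPM (SD, n = 3) and 988 ± 416 CPM (SD, n = 6), and the log2 fold change was -0.08 ± 0.33 (SE, edgeR adjusted p = 1.00), a value that turned positive in 3 of 15 alternative settings.

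Angpt1, the activating ligand, had 0 counts in all 3 depleted and in 4 of the 6 wild-type libraries, 12 counts (1.18 CPM) in wild-type 3 and 3 counts in wild-type 4, and it was too low to be tested. A count of 0 allows up to 3 counts, which is 0.211 to 0.548 CPM in these 7 libraries, for counting error alone. Per length and library, Angpt2 was 759-fold above Angpt1 in wild-type 3 (95% counting interval 434 to 1469), 1431-fold in wild-type 4 (489 to 6942) and at least 2383-fold higher in each of the other 7 tumor libraries, against the limit of 3 counts per library. In the sprout libraries the same ratio was 2.53 and 4.08 under STOP and 3.25 and 5.05 under GO, and its counting intervals, which ran from 1.23 to 10.1 in all, overlapped between STOP and GO.

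Of the 4 members tested in tumor ECs, 0 passed in edgeR, 0 had an unadjusted p under 0.05 (2.94% of all genes did so lower and 1.87% higher), and 0 passed in DESeq2, where 0.635% of all genes with an adjusted p passed lower and 0.128% higher. None had groups without overlap, against 1.27% of all genes lower and 1.06% higher. Of the 13073 genes tested in this set, 0.00765% passed lower and 0% passed higher, so the edgeR calls of this set came to 1 gene, and the missed threshold does not show that the groups are alike. Over 15 alternative settings the adjusted p of Tek, Tie1, Ptprb and Angpt2 stayed at or above 0.672. Set against the endothelial markers, whose mean was 0.27 log2 units higher in the depleted group, Tek differed by 0.25, Tie1 by 0.13, Ptprb by 0.03 and Angpt2 by -0.26 (exact permutation tests, two-sided, adjusted p from 0.850 to 0.893 over 7 tests, smallest possible p 0.0119). With 1 library left out, the relative Tek value lay between 0.14 (without wild-type 6) and 0.39 (without wild-type 5), and that of Angpt2 between -0.40 (without Apelin-depleted 1) and -0.15 (without wild-type 1).

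**Figure D3:**
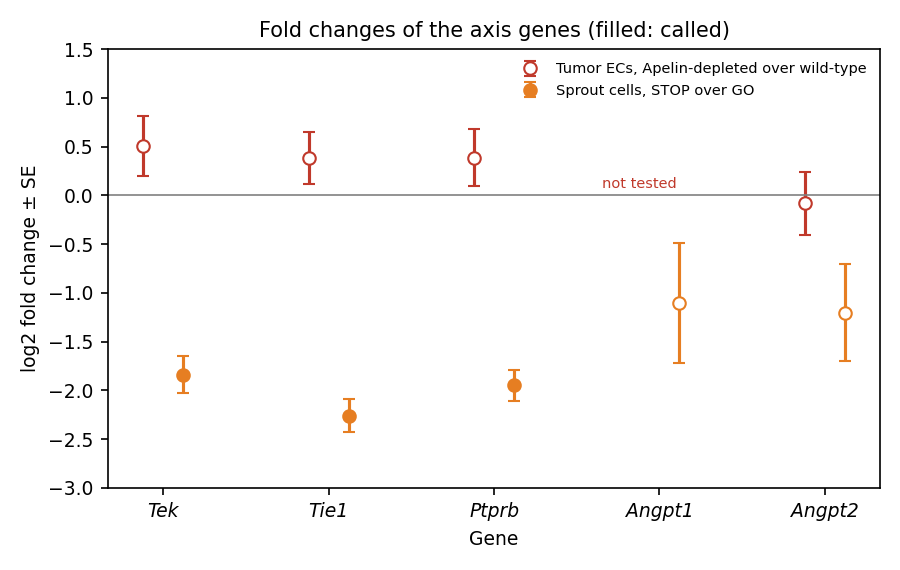
Log2 fold change with its standard error (y axis) of each axis gene from edgeR, Apelin-depleted over Apelin wild-type in tumor ECs and STOP over GO in sprout cells, with filled symbols for genes past both thresholds. Tek, Tie1 and Ptprb are filled at -1.84, -2.26 and -1.95 in sprout cells and open at 0.51, 0.38 and 0.39 in tumor ECs, and Angpt1 was not tested in tumor ECs.

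In CPM per kilobase of transcript, by the lengths of the sprout libraries, the order in both tumor groups was Angpt2, Tie1, Ptprb, Tek and Angpt1. In the Apelin wild-type group these were 282 ± 118, 116 ± 24.3, 59.3 ± 8.46, 26.95 ± 7.39 and 0.07 ± 0.12 (SD, n = 6), and neighbours did not overlap. In the Apelin-depleted group Ptprb (44.1 to 112) and Tek (28.4 to 49.0) overlapped, and the other neighbours did not. Tie1 stood above Tek and Tek above Angpt1 in both sets, whereas Angpt2 came after Ptprb in the sprout libraries and led the order in the tumor libraries.

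The contrasts of the 2 sets were then compared in a fit over all 13 libraries and 15762 genes. The tumor log2 fold change exceeded the sprout log2 fold change by 2.59 ± 0.42 (SE) for Tie1, 2.29 ± 0.46 for Ptprb and 2.3 ± 0.51 for Tek, with unadjusted p of 9.96e-06, 0.000110 and 0.000273 and edgeR adjusted p of 0.0523, 0.114 and 0.134. None passed in edgeR, where 0% of all genes passed in that direction and 0.00634% in the other, while DESeq2 passed all 3 (adjusted p = 1.48e-05, 0.00966 and 0.0118), with 0.38% of all genes passing in that direction and 0.158% in the other. For Angpt2 the difference was 1.07 ± 0.60 (SE, edgeR adjusted p = 1.00), and for Angpt1 it rests on tumor counts at or near 0 (-3.78 ± 2.70 SE, adjusted p = 1.00). The contrasts differ in tissue, library preparation and the way Apelin was changed, which cannot be told apart.

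The genes around the axis were grouped in 5 lists of 89 genes, of which 85 were tested in sprout cells and 83 in tumor ECs. In sprout cells, 17 of the 85 passed lower under STOP and 0 passed higher, against 3.03% and 0.852% of all genes. At an unadjusted p under 0.05 there were 39 lower and 9 higher, against 14.3% and 12.4% of all genes, and the median of the lists was -0.40 on the log2 scale against 0.01 over all genes. In DESeq2 the counts past both thresholds were 18 and 0, against 4.68% and 1.47% of all genes. With the replicate number as a block 6 passed lower and 0 higher (0.282% and 0.0206% of all genes), and without GO 1 the counts were 9 and 0 (0.914% and 0.129% of all genes).

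Of the transcription factors known to act on Tek or Angpt2, 11 of 20 were called lower under STOP and 0 higher, with a median of -1.61. The 6 with the largest changes were the blood and endothelial factors Tal1 (8.14 against 46.8 CPM, log2 fold change -2.52) and Lyl1 (-2.34), the ETS factors Erg (10.01 against 51.1 CPM, -2.35) and Fli1 (16.7 against 68.1 CPM, -2.03), the forkhead factor Foxc2 (-2.31) and the calcineurin-dependent Nfatc1 (-1.99), with edgeR adjusted p from 0.00242 to 0.0125. The other 5 were Ets1, Runx1, Mef2c, Elk3 and Epas1, from -1.88 to -1.02. Klf2 was the 1 gene of this list above 0 (0.56 ± 0.20 SE, edgeR adjusted p = 0.127), at 337 and 315 CPM under STOP and 178 and 264 CPM under GO. Several of these factors are endothelial genes themselves, as the markers above are.

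Among the substrates of VE-PTP and its junction partners, 4 of 10 passed lower and the other 6 were below 0 without passing both thresholds (median -0.68). Cldn5, a tight junction protein, stood at 25.7 against 109 CPM (-2.10), Cdh5 at 167 against 658 CPM (-1.98), the VEGF receptor Kdr at 116 against 449 CPM (-1.95) and Fgd5, an exchange factor of ECs, at 25.2 against 88.8 CPM (-1.82). Cldn5, Cdh5 and Kdr also belong to the endothelial markers. The catenins of this list, which most cells carry, lay nearer to 0, with Ctnnb1 at -0.34 and Ctnnd1 at -0.51, neither of which passed.

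Downstream of Tie2, 1 of 27 adaptors and effectors passed, a share near the 3.03% of all genes called lower, with a median of -0.23. It was Nos3, endothelial nitric oxide synthase, at 26.1 and 29.6 CPM under STOP and 104 and 88.7 CPM under GO (-1.80 ± 0.16 SE, edgeR adjusted p = 0.00263). The kinases Akt1 and Akt2 stood at -0.53 and 0.13, and the adaptor Grb2 at 0.05, none of them passing. Of the FOXO factors and their targets, which Tie2 signaling holds down through Akt, 1 of 18 passed, the pseudokinase gene Trib1 (-1.33 ± 0.26 SE, adjusted p = 0.0359), and the median was -0.08, so this list too gave no count past both thresholds to set apart from that background. At an unadjusted edgeR p under 0.05, 6 of the 18 were lower and 4 higher, against 14.3% and 12.4% of all genes. For the 27 adaptors and effectors these counts were 7 and 3. Foxo1, the FOXO factor known to induce Angpt2, stood at 64.3 and 70.8 CPM under STOP and 88.2 and 97.1 CPM under GO and did not pass (-0.46 ± 0.14 SE, adjusted p = 0.0937).

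Of the other ligands and extracellular partners, 0 of the 10 tested passed, and the median was -0.30. At an unadjusted edgeR p under 0.05 there were 1 lower and 1 higher, against 14.3% and 12.4% of all genes. Angpt4, a further Tie2 ligand, had 7 counts or fewer in each sprout library and was not tested. Itga5, an integrin chain that binds Angpt2, stood at 107 against 211 CPM (-0.98 ± 0.17 SE, edgeR adjusted p = 0.0211) and missed the fold threshold.

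**Figure D4:**
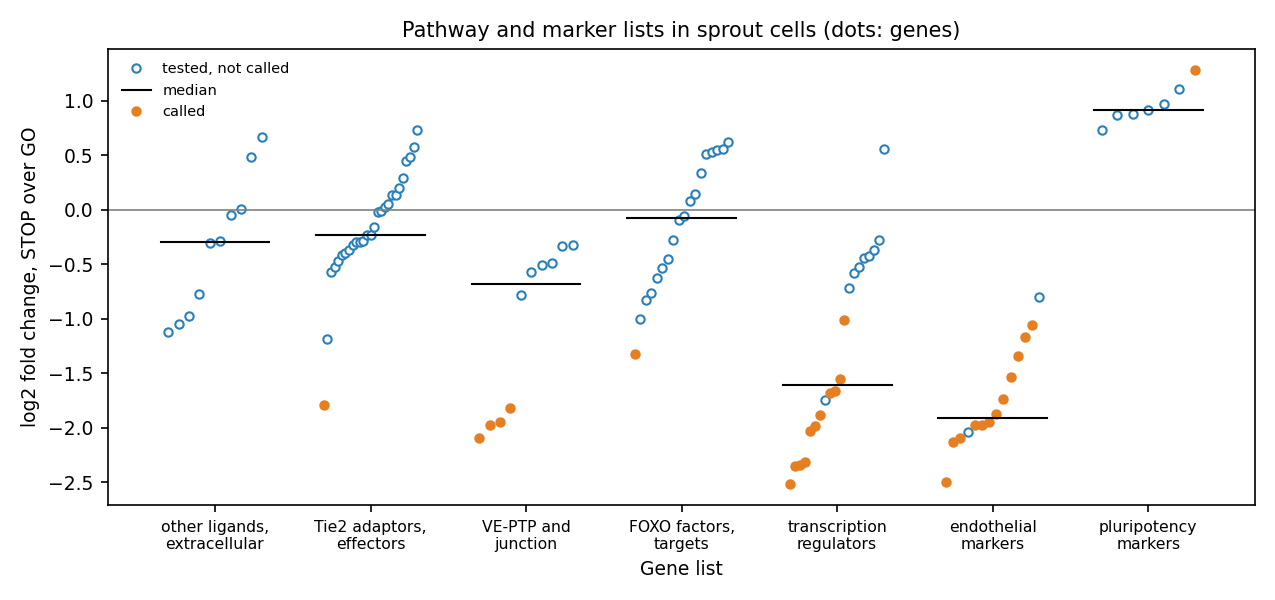
Log2 fold change of STOP over GO (y axis) for the tested genes of 5 lists around the axis and 2 marker lists in sprout cells, with a dot per gene, filled where it passed both thresholds, and a bar at the list's median. Called genes are mostly in the transcription regulator and endothelial marker lists (medians -1.61 and -1.91), and the pluripotency markers lie above 0 (median 0.92).

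In tumor ECs, 0 of the 83 tested list genes passed in edgeR, in DESeq2 or in limma voom with quality weights (0.00765% of all genes in each direction in the last), with 4 lower and 6 higher at an unadjusted p under 0.05, against 2.94% and 1.87% of all genes, and a median of 0.14 against -0.03 over all genes. Of the 20 transcription regulators 17 were above 0 (median 0.32), against 6289 of all 13073 genes and 11 of the 14 endothelial markers (median 0.28). The largest value with an unadjusted p under 0.05 among the regulators was that of Gata3 (2.70 ± 1.21 SE, edgeR adjusted p = 1.00). Gata3 stood at 12.9, 0.563 and 15.1 CPM with depletion and at 0.141 to 4.17 CPM without, or 9.53 against 1.47 CPM on average. The medians were 0.20 for the VE-PTP list, 0.05 for the Tie2 adaptors, 0.01 for the FOXO list and -0.29 for the other ligands. Kdr was at 0.64 ± 0.28 (SE, adjusted p = 1.00) and Insr, the insulin receptor and a FOXO target, at 0.99 ± 0.38 (SE, adjusted p = 0.957).

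Transcripts of the cell types around ECs, mural cells among them, were present in the libraries. In the sprout set, the 12 mural markers summed to 284 and 472 CPM under STOP and 707 and 310 CPM under GO, and the 6 fibroblast markers to 460 and 2946 CPM under STOP and 2922 and 610 CPM under GO. GO 1, the library with the highest Angpt1 (3.07 CPM) and Angpt2 (8.20 CPM), was the highest for the mural markers, while STOP 2, as rich in fibroblast markers, had Angpt1 at 1.14 CPM. None of the 10 tested mural and 6 fibroblast markers passed between STOP and GO or had an unadjusted p under 0.05. Erythroid markers summed to 57.6 and 15.2 CPM under STOP and 196 and 289 CPM under GO, with 1 of 5 called lower, megakaryocyte and platelet markers to 37.7 and 39.0 against 80.2 and 99.8 CPM, with 1 of 3 called lower, and leukocyte markers to between 21.7 and 42.1 CPM in the 4 libraries, with 1 of 5 called lower. Most of the platelet sum was Itgb3, at 28.2 and 34.5 CPM under STOP and 58.4 and 68.1 CPM under GO. Tumor ECs held Itgb3 at 155 to 287 CPM, so this sum does not stand for platelets alone. Pf4, Gp9, Gp1bb and Ppbp were at 3.23 CPM or less in each sprout library. Epithelial markers (0 of 6 called) summed to 601 to 1022 CPM, and of 5 lymphatic endothelial markers 1, Flt4, was called lower (-1.71). Most of the epithelial sum was Cdh1 (499 and 381 CPM under STOP, 242 and 282 CPM under GO) and Epcam (318 and 214, 127 and 157 CPM). Both lay higher under STOP without overlap, as the pluripotency markers did, and which cells they came from was not tested. Single calls in lists this short stand beside 3.03% of all genes called lower and 0.852% called higher. The medians were -2.67 for the erythroid, -1.90 for the platelet, -1.54 for the leukocyte and -1.39 for the lymphatic endothelial markers. They were -0.74 for the mural, -0.11 for the fibroblast and 0.21 for the epithelial markers. STOP lay below GO without overlap for 5 of 5 erythroid and 3 of 3 platelet markers. The same held for 3 of 5 leukocyte and 4 of 5 lymphatic markers, against 29.6% of all genes. STOP lay above GO without overlap for 7 of 7 pluripotency and 3 of 6 epithelial markers, against 31% of all genes. No tested mural or fibroblast marker had groups apart. The part of these cells in the axis values was not tested.

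In tumor ECs, the library richest in fibroblast markers, Apelin wild-type 2, had Angpt1 at 0 counts and Angpt2 at 592 CPM, the lowest of the 9. It was also the library with Angpt4 at 36.4 CPM, against at most 2.78 CPM in the others. Its Dcn stood at 2100 CPM and its Pdgfrb at 168 CPM, and their part in the Angpt4 level was not tested. Without it the fold change of Tek was 0.44, that of Tie1 0.41, that of Ptprb 0.44 and that of Angpt2 -0.19, and none passed. Of the marker lists of other cells, 0 genes passed between the tumor groups, with 3 lower and 1 higher at an unadjusted p under 0.05 (2.94% and 1.87% of all genes), and with medians of -1.05 for the mural, -4.64 for the fibroblast, 1.24 for the leukocyte, -0.28 for the platelet and 1.27 for the lymphatic endothelial markers, and with 1 erythroid (-1.43) and 1 epithelial marker (-0.90) tested. Pdgfrb, a marker of pericytes and fibroblasts, was at 0.141 to 2.44 CPM with depletion and at 3.65 to 168 CPM without, and did not pass (edgeR adjusted p = 0.914). The lymphatic marker Lyve1 stood at 632 and 1080 CPM in Apelin-depleted 1 and 2 and at 1710 CPM in wild-type 3, against 93.6 CPM or less elsewhere, and leukocyte Lyz2 at 601 CPM in Apelin-depleted 1 and 455 CPM in wild-type 4, although the sort was gated on CD45-. Prox1-positive lymphatic cells carry Tie receptors too, and the part of these cells in the tumor values was not tested.

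**Figure D5:**
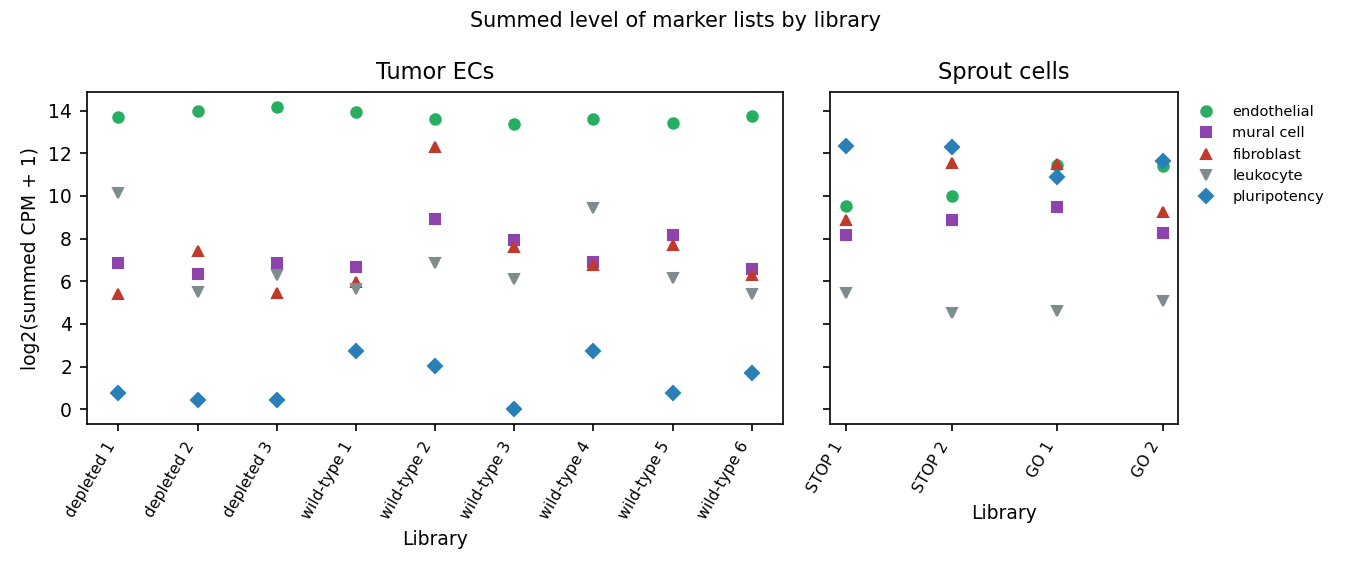
Summed level of 5 marker lists on the log2(summed CPM + 1) scale (y axis) in each library (x axis), for tumor ECs and sprout cells. Endothelial markers lead in each tumor library, fibroblast markers peak in Apelin wild-type 2 (5032 CPM), and pluripotency markers exceed the endothelial sum in 3 of the 4 sprout libraries.

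Finally, each member tested in both sets was matched to the genes whose levels followed it most closely over the 13 libraries, by the mean absolute difference in log2(CPM + 1) after centring each set, among 11466 genes with a mean of at least 1 CPM in each set. The libraries share their depth and cell mix, so this describes the samples. Ptprb was nearest to the VEGF receptor Flt1 (0.15), followed by Cracr2b (0.19) and Myzap (0.21). Tie1 was nearest to Plxnd1, the endothelial semaphorin receptor (0.18), then Arap3 (0.19) and Cdh5 (0.21). Tek was nearest to the transporter Slco2b1 (0.21), which was low in sprout cells (1.03 CPM), then Spata13 (0.24) and Endod1 (0.25). Angpt2 was nearest to Zkscan3 (0.19), Anxa3 (0.21) and Nrip1 (0.23), none of which belongs to the lists above. Angpt2 itself was low in sprout cells (1.69 to 8.20 CPM), where the added count of 1 CPM understates its changes. Its nearest genes and its distances from other members depend on that. The medians over all candidates were 0.62 to 0.77. Between members, Tek and Ptprb differed by 0.31, Tek and Tie1 by 0.33 and Tie1 and Ptprb by 0.37, while Angpt2 differed from these 3 by 0.44 to 0.57.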

How the data were processed

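The authors deposited, per the labels and the study's methods, whole-number read counts per RefSeq gene on mm10. Sprout counts came from STAR 2.5.0a and HTSeq 0.6.1p1, and the same libraries had expected counts, TPM and FPKM from RSEM 1.2.25, which the authors deposited beside them (FPKM entered no test). The methods give STAR and featureCounts for the tumor counts, while the submitters' processing notes list Trim Galore 0.5.0, Bowtie2 2.3.4.1, SAMtools 1.9 and Subread 1.6.2 without their roles. Rows that name no gene (54.1 to 59.1% of the reads listed in the sprout files, most of them not unique) were left out of library sizes and tests.

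Each set was fitted on its own with edgeR 4.0.16 (R 4.3.3): filterByExpr (minimum count 10), TMM, robust quasi-likelihood fit, Benjamini-Hochberg adjustment over all tested genes, and a call at adjusted p under 0.05 with a log2 fold change of at least 1 either way. CPM use TMM library sizes, logs add 1 CPM, and lengths are RSEM effective lengths. These were averaged over the sprout libraries and used for tumor ECs too, which differ in cells and library preparation. DESeq2 1.42.0 and limma 3.58.1 served as alternatives, with RSEM expected counts rounded to whole numbers. CPM per kilobase in tumor ECs and the crossed replicate numbers were added after seeing the data. The replicate numbers did not pair the samples.

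Named genes were the 5 members, up to 6 called genes per list and direction, genes needed to describe a marker list, the 3 nearest genes per member, and Apln. Foxo1, Akt1, Akt2, Grb2, Ctnnb1, Ctnnd1, Klf2, Itga5, Gata3, Kdr and Insr in tumor ECs, Angpt4 and Mcph1 were named after their values were seen. Members and lists were chosen with earlier results of these data known. Counting intervals and limits of 3 counts cover counting error only, since reads carried no molecular identifiers.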

Additional observations from a re-analysis of the deposited data

Results flagged for a closer look

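Among 13 measures examined over the 6 Apelin wild-type libraries, 2 held a library whose gap to the nearest other, divided by the range of the group, was above Dixon's limit, where chance gives about 1 in 20. Angpt4 in Apelin wild-type 2 (36.4 CPM, 373 counts, against at most 2.78 CPM in the other 5 libraries of the group) had a gap of 0.633 of the range on the log2 scale. The Tie1 to Tek ratio in Apelin wild-type 5 (1.62, against 3.50 to 5.05 in the other 5) had a gap of 0.678. That library had the highest Tek level of its group (179 CPM) and the lowest Tie1 level (290 CPM).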

How the results depend on the processing

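In sprout cells, Tek, Tie1 and Ptprb kept direction in each of 11 alternatives. They kept their call in each that used all libraries, with edgeR adjusted p of 0.0358 in the fit with the replicate block. Calls with a sprout library left out rest on the spread of the other group alone. With each library left out in turn their fold changes ranged from -2.02 to -1.63, from -2.48 to -2.06 and from -2.05 to -1.84, that of Angpt2 from -1.91 to -0.67 and that of Angpt1 from -1.65 to -0.11. With crossed replicate numbers, added after seeing the data, Angpt2 passed (-1.21, adjusted p = 0.0119). In tumor ECs, Angpt2 turned positive with the replicate block (0.037), without Apelin-depleted 2 (0.01) and without Apelin wild-type 1 (0.15), within a range of -0.19 to 0.15 over the libraries left out, and the cause was not tested.

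The 17 list genes called lower under STOP became 6 with the replicate block and 9 to 18 with each library left out (9 without GO 1), and the 0 called higher became 1 on adjusted p alone and 0 to 1 with libraries left out (1 without STOP 2). Over all genes, the 441 lower and 124 higher calls of sprout cells became 41 and 3 with the block, where same-numbered libraries deviated in opposite directions (r = -0.43, a single value, since the deviations of 2 libraries in a group mirror each other), and 933 and 302 with crossed numbers. With a library left out, these counts rose or fell depending on which library it was. DESeq2 called 94 lower and 19 higher in tumor ECs, against 1 and 0 in edgeR.

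The difference of the contrasts passed in DESeq2 for Tek (2.27), Tie1 (2.56) and Ptprb (2.27). For Tie1 it also passed with DESeq2 size factors in edgeR (2.56, adjusted p = 0.0498). With libraries left out, Tek ranged from 2.07 to 2.5, Tie1 from 2.42 to 2.77 (passing without Apelin-depleted 2, 2.47, and without Apelin wild-type 5, 2.51) and Ptprb from 1.91 to 2.59 (passing without Apelin-depleted 2). With the replicate block in each set none passed. Differences of ratios between the tumor groups, none of which passed, ranged with libraries left out from -0.34 to 0.11 for Tie1 to Tek (above 0 without Apelin-depleted 3), from -0.45 to 0.15 for Ptprb to Tek (above 0 without Apelin-depleted 2, 0.146), and, relative to the endothelial markers, from -0.023 to 0.28 for Tie1 (below 0 without Apelin-depleted 2) and from -0.16 to 0.36 for Ptprb (below 0 without Apelin-depleted 1, -0.098, or 3, -0.164, or Apelin wild-type 1, -0.055, or 4, -0.030). With Pecam1 and Cdh5 as the markers, the relative values in sprout cells were -0.36 for Tek, -0.83 for Tie1, -0.47 for Ptprb, 0.45 for Angpt2 and 0.86 for Angpt1. Pecam1 encodes CD31, on which these cells were sorted.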
